A study of Mus musculus with 4 samples.

Results

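Vinculin (Vcl), its ligand Raver1 and 5 other genes of focal adhesions and the cortical actin network, Zyx, Rsu1, Svil, Iqgap1 and Cap1, were examined in bulk RNA sequencing of mouse bone. The 7 genes were taken by symbol from a table of 1175 genes that compares exercised with sedentary bone. They were chosen with the values of this comparison known, so the differences between groups, and the counts of members past a threshold, are given as a description and not as a test. All animals were wild type, for the Cre line and for the genotype, and were 13 weeks old when bone was taken. Exercised mice had 5 weeks of treadmill running of medium intensity from the age of 8 weeks, and sedentary mice had none. Polyadenylated RNA was extracted from bone that had been emptied of marrow and ground in liquid nitrogen. There were 2 libraries per group, and the labels do not say whether those of a group came from different animals.

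Focal adhesions are protein assemblies that join the extracellular matrix, through integrins, to actin filaments. Talin binds the integrin tail, and under tension it unfolds and recruits vinculin, which in turn binds actin and strengthens the link. Zyxin (Zyx) moves to adhesions and stress fibres under load and brings in actin polymerising factors of the Ena/VASP family. Raver1 is an RNA-binding protein that associates with the vinculin tail and with the splicing regulator PTB. Rsu1, a leucine-rich repeat protein, binds PINCH in the complex of integrin-linked kinase. Supervillin (Svil) ties actin and myosin II to the plasma membrane, Iqgap1 is a scaffold for Cdc42, Rac1 and calmodulin that crosslinks actin, and Cap1 binds actin monomers and works with cofilin in filament turnover. In bone, osteoblasts and osteocytes use such adhesions to sense load, and platelets and leukocytes, which marrow contains, hold the same proteins in abundance.

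Promoter windows were used for 6 of the 7 genes, as RefSeq sequence on GRCm38.p6 from 250 bases before the gene start to 50 after it. Svil was left out of this part. The windows of Vcl and Raver1 are shown because their shares were far higher in exercised than in sedentary bone. Those of Zyx and Rsu1, which also belong to adhesions, are shown because theirs were not. Capitals mark matches on either strand to the CArG box, the site of serum response factor (SRF), to GGAATG, the core of TEAD sites, to TGANTCA, the AP-1 site, and to GGGCGG, the GC box.
Vcl, chr14:20929148-20929447, plus strand: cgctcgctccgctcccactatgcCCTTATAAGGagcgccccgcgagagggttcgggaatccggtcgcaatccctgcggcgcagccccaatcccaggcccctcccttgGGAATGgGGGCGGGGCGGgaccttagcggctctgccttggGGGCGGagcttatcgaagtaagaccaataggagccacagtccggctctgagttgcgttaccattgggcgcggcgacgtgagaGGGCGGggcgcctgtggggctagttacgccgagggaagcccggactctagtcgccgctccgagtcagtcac
Raver1, chr9:21091950-21092249, minus strand: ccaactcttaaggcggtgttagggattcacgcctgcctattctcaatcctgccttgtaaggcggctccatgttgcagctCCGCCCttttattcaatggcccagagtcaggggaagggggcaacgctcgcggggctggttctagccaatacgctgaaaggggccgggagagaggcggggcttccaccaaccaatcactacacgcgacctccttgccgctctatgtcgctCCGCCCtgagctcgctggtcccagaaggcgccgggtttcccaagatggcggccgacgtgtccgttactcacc
Zyx, chr6:42349578-42349877, plus strand: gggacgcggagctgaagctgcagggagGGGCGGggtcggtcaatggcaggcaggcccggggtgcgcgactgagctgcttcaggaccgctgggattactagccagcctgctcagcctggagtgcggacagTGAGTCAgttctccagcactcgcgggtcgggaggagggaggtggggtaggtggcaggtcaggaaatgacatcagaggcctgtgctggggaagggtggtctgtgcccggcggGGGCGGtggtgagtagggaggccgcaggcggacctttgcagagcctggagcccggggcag
Rsu1, chr2:13271366-13271665, minus strand: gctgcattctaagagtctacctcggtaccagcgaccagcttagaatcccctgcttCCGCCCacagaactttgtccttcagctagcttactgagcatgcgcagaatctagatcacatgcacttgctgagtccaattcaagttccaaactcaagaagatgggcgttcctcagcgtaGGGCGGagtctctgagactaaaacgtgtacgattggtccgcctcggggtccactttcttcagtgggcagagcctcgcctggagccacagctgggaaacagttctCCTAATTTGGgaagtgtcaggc

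The Vcl window held a CArG box, CCTTATAAGG, whose first base lay at -227 from the gene start, and the Rsu1 window held another, CCTAATTTGG, at 29 after it. CArG boxes were present in 1.63% of 32851 mouse promoter windows of this length and in 1.32% of 1059 windows of genes in the table. The Vcl window also had GGAATG at -143, a motif found in 14.7% of all windows, and the Zyx window had TGAGTCA at -121, with TGANTCA found in 7.81%. In the Vcl window, GGGCGG occurred at -136 and again at -131, where the copies overlap by a base. Raver1 had none of these 3 motifs and had the GC box alone, which occurred in 5 of the 6 windows, in 35.7% of all windows and in 60.2% of those of genes in the table. Neither CACGTG (7.15% of all windows) nor TATAAA (13.6%) occurred in any of the 6. These letters describe the windows, and binding was not measured.

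Counts of the 1175 genes summed to between 516963 and 594856 in the sedentary libraries, to 1160883 in exercise replicate 1 and to 2680636 in exercise replicate 2. Mean counts of all these genes were higher in exercise, by at least 2.48 times (median 3.85), and how they came to be selected is not stated in the sources used here. A sum over a selected table is no library depth, so each value below is a share, the count of a gene per 1000000 counts of the table in the same library. The libraries of exercised bone were far less alike than the sedentary ones. Where the mean count was 100 or higher, the log2 ratio of shares between replicates 2 and 1 had an SD of 0.70 in exercise (1005 genes) and 0.27 in sedentary bone (1002 genes). The 7 genes together made up a share of 20829 and 20584 in sedentary replicates 1 and 2, and of 21706 and 17313 in exercise replicates 1 and 2.

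Vinculin and Raver1 had by far the most distinct values of the 7 genes. Vcl (ENSMUSG00000021823.10, chr14:20929398-21033676, plus strand, GRCm38) was counted 83.6 and 76.3 times in the sedentary libraries, 944.07 times in exercise replicate 1 and 6190.5 times in exercise replicate 2. Its share was 141 (95% Wilson interval 114 to 175) and 148 (117 to 184) in sedentary bone, 813 (763 to 867) in exercise replicate 1 and 2309 (2252 to 2367) in exercise replicate 2. Both exercise libraries were far above both sedentary ones, and they also stood far apart from each other. The intervals cover counting error only, and the difference between the exercise libraries was many times wider than them. The mean share was 144 ± 4.99 in sedentary and 1561 ± 1058 in exercised bone (SD, n = 2 each), 10.8 times higher. The ratio to the sedentary mean was 5.64 in exercise replicate 1 and 16.0 in exercise replicate 2.

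Raver1 (ENSMUSG00000010205.11, chr9:21074158-21092008, minus strand) was the least counted of the 7 genes in sedentary bone and the steadiest of the pair in exercise. It had 26.85 and 21.04 counts in sedentary bone, 658.01 in exercise replicate 1 and 1688.78 in exercise replicate 2. The share was 45.1 (31.2 to 66.0) and 40.7 (26.6 to 62.1) in sedentary bone, and 567 (525 to 612) and 630 (601 to 661) in exercise replicates 1 and 2. The exercise libraries thus lay close together and far above the sedentary ones. The mean was 42.9 ± 3.14 in sedentary and 598 ± 44.7 in exercised bone (SD, n = 2 each), 13.9 times higher. In the fit of edgeR over all 1175 genes, the log2 share ratio of exercise over sedentary was 3.79 ± 0.20 (SE) for Raver1 and 3.44 ± 0.54 for Vcl. These ratios ranked 54 and 61 from the top of the table, whose median log2 ratio was 0.14. That median was 0.04 with DESeq2 size factors. Relative to it in the fit by column totals, Raver1 was 3.65 and Vcl 3.30 higher. Leaving out exercise replicate 2 gave a ratio of 2.50 for Vcl and leaving out exercise replicate 1 gave 4.003, whereas Raver1 stayed at 3.71 and 3.87.

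**Figure D1:**
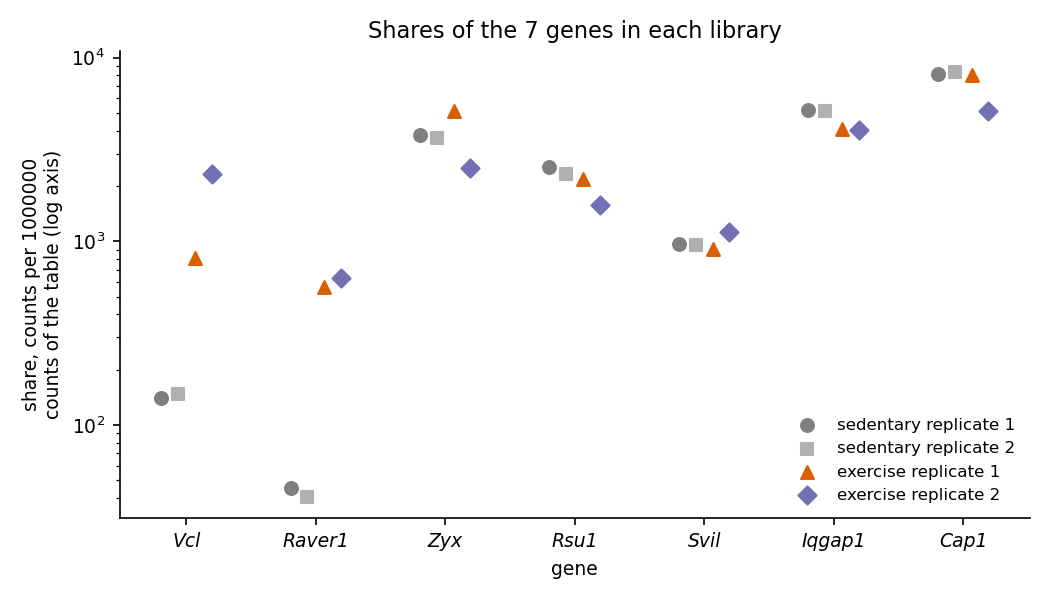
Share of each of the 7 genes in each of the 4 libraries, in counts per 1000000 counts of the table, on a log axis, with 1 point per library. Vcl, at 141 and 148, and Raver1, at 45.1 and 40.7, have the lowest shares of the 7 genes in sedentary bone. Each is higher in both exercise libraries than in both of its own sedentary values. Raver1, at 567 and 630, is still the lowest of the 7 genes in exercise. The sedentary and exercise points of each of the other 5 genes lie closer together than those of Vcl and Raver1.

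The adhesion proteins zyxin and Rsu1 did not share this pattern. Zyx (ENSMUSG00000029860.16, chr6:42349630-42360213, plus strand) had a share of 3808 and 3664 in sedentary bone, 5126 in exercise replicate 1 and 2517 in exercise replicate 2. The exercise libraries fell on opposite sides of the sedentary pair, so that the groups overlapped. The means were 3736 ± 102 and 3822 ± 1845 (SD, n = 2 each), and the log2 share ratio was 0.03 ± 0.33. Its sign turned with the scaling, to -0.05 with DESeq2 size factors and -0.04 with TMM factors, and with the library left out, to -0.57 without exercise replicate 1 and 0.46 without exercise replicate 2.

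Rsu1 (ENSMUSG00000026727.10, chr2:13076821-13271415, minus strand) had a share of 2528 and 2337 in sedentary bone and of 2182 and 1584 in exercise replicates 1 and 2. Both exercise libraries were below both sedentary ones, with replicate 2 the lower. The log2 share ratio was -0.37 ± 0.19, the second lowest of the table, with -0.16 without exercise replicate 2 and -0.62 without exercise replicate 1. The counts themselves were higher in exercise, 2533 and 4246 against 1504 and 1208, a ratio of means of 2.50 that is close to the lowest in the table. A lower share therefore goes with a higher count here, and the table cannot tell which of these holds in the whole transcriptome.

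Among the actin regulators, Iqgap1 had close replicates in both groups, in exercise the closest of the 7 genes. Iqgap1 (ENSMUSG00000030536.10, chr7:80711583-80825974, minus strand) had a share of 5174 and 5095 in sedentary bone and of 4076 and 4017 in exercise replicates 1 and 2, with no overlap between groups. The means were 5135 ± 56.0 and 4047 ± 41.9 (SD, n = 2 each), 0.788 times the sedentary mean. The log2 share ratio was -0.34 ± 0.13. As with Rsu1, the counts themselves were higher in exercise, 4732 and 10768 against 3078 and 2634, a ratio of means of 2.71. Leaving out exercise replicate 2 or exercise replicate 1 gave -0.33 and -0.35, the narrowest such range of the 5 genes other than Vcl and Raver1.

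Cap1 (ENSMUSG00000028656.14, chr4:122859047-122886056, minus strand) had the largest share of the 7 genes. It stood at 8172 and 8347 in sedentary bone, at 8037 in exercise replicate 1 and at 5134 in exercise replicate 2. Exercise replicate 1 was hardly below the sedentary libraries, so the lower mean of 6585 ± 2053 against 8259 ± 124 (SD, n = 2 each) came almost wholly from exercise replicate 2. The log2 share ratio of -0.33 ± 0.24 was -0.04 without that library and -0.69 without exercise replicate 1. Counts of Cap1 were higher in exercise, 9330 and 13761.98 against 4860.98 and 4314.99, a ratio of means of 2.52.

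Svil (ENSMUSG00000024236.18, chr18:4920540-5119299, plus strand) had overlapping groups. Its share was 962 and 954 in sedentary bone, 904 in exercise replicate 1 and 1122 in exercise replicate 2, on either side of the sedentary pair. The log2 share ratio was 0.08 ± 0.16, -0.03 with DESeq2 size factors, -0.02 with TMM factors and -0.08 without exercise replicate 2.

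Shares of Vcl, Zyx, Rsu1 and Cap1 differed widely between the exercise libraries. From exercise replicate 1 to exercise replicate 2 the share was 2.84 times as high for Vcl and 0.491 times for Zyx, 0.639 times for Cap1 and 0.726 times for Rsu1. For Vcl 100 of the 1175 genes had a higher log2 ratio between these libraries, and for Zyx 30 had a lower one. The ratios of Svil, Raver1 and Iqgap1 were 1.24, 1.11 and 0.985. In sedentary bone the same ratio lay between 0.902 for Raver1 and 1.05 for Vcl. Hence the exercise libraries did not order the 7 genes in 1 direction, and the source of their difference was not tested.

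**Figure D2:**
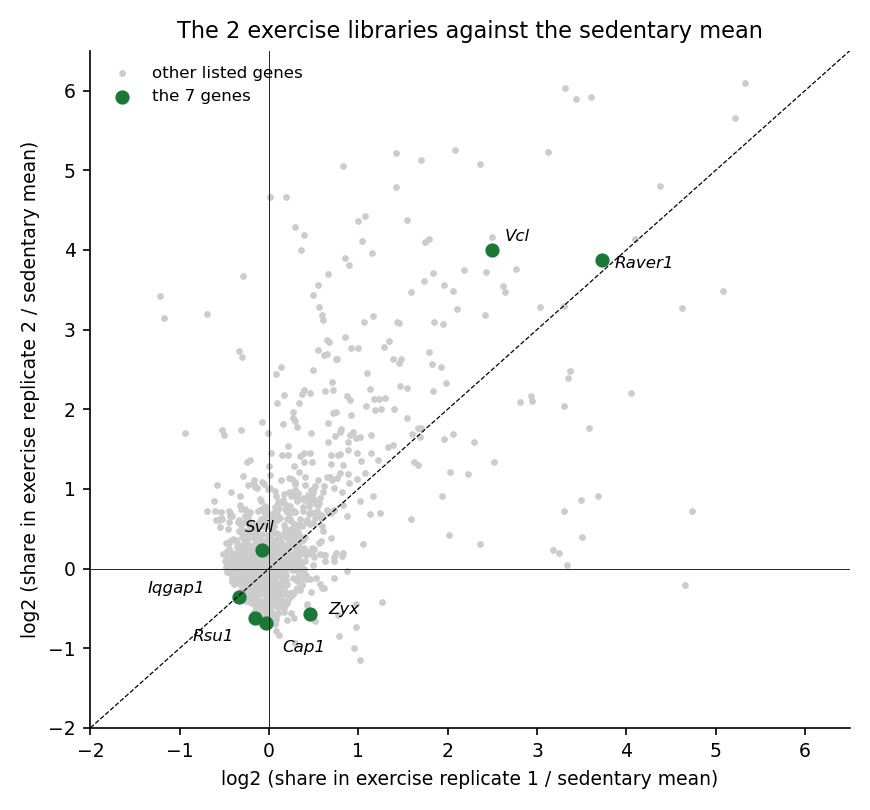
log2 ratio of the share in each exercise library to the mean sedentary share, replicate 1 on the horizontal and replicate 2 on the vertical axis, with 1 point per gene and the line of equality dashed. 32 genes with a mean sedentary or an exercise share of 0 have no ratio and 4 lie outside the axes. Raver1 is close to the dashed line, Vcl lies above it and Zyx below it, and Iqgap1 is negative in both libraries.

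The study's methods, which name DESeq2, call a gene by a p under 0.05 without adjustment and a log2 fold change beyond 0.25. With these thresholds applied in edgeR to shares, in either direction, 3 of the 7 genes were called, against 134 of 1175 or 11.4% of the table. Vcl and Raver1 had the higher share (11.3% of the table was called in that direction) and Iqgap1 the lower one, which was the only such call in the table with column totals (0.0851%). With other scalings there were more lower calls, 11 with TMM factors, 21 with DESeq2 size factors and 10 with totals without mt-Co1, the gene with the highest count. Raver1 was also 1 of the 4 genes, or 0.34% of the table, with an adjusted p under 0.05 in edgeR, a call that was lost with limma-voom, without sedentary replicate 1 and without sedentary replicate 2. With the Wald test of DESeq2, Vcl and Raver1 were both among 36 genes of the table with an adjusted p under 0.05. With the replicate block in edgeR they were both among 12. Both exercise shares were above both sedentary shares in 2 members (36% of the table) and below them in 3, Rsu1, Iqgap1 and Cap1 (16.1%). The groups overlapped in Zyx and Svil. The members were picked from this contrast, so the shares of the table are printed for scale and nothing is read from them. Iqgap1 was not called without sedentary replicate 1 or without sedentary replicate 2, which left 2 calls. There were 6 calls without exercise replicate 1 and 4 without exercise replicate 2.

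Per kilobase of annotated exon, the order of the shares in sedentary bone was Cap1, Zyx, Iqgap1, Rsu1, Svil, Vcl and Raver1. Mean sedentary shares per kilobase were 2364, 693, 310, 262, 89.5, 17.6 and 12.4 in that order. The values of Vcl (17.2 and 18.0) and Raver1 (13.0 and 11.7) did not overlap, but the counting intervals of Raver1 were wide (26.6 to 62.1 around a share of 40.7 in sedentary replicate 2), so their order is not resolved. In exercise, Cap1 (2300 and 1469 per kilobase) and Zyx (951 and 467) kept the highest levels. Below them the order changed. Vcl stood at 99.3 and 282, Raver1 at 163 and 182, Rsu1 at 235 and 170, Iqgap1 at 246 and 243 and Svil at 84.5 and 105. In exercise replicate 2 the share of Vcl per kilobase was thus above those of Iqgap1 and Rsu1, and in exercise replicate 1 it was below both. Exon lengths span all annotated transcripts, and the sources used here do not say whether counts of this library type grow with length.

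Ratios between genes of the same library do not depend on depth or scaling, and talin 1 (Tln1), the binding partner of vinculin, was taken as the denominator after its values had been seen. Per 100 counts of Tln1 there were 1.51 and 1.66 counts of Vcl in sedentary bone, 9.29 in exercise replicate 1 and 31.0 in exercise replicate 2. For Raver1 the values were 0.486 and 0.456 in sedentary bone and 6.47 and 8.46 in exercise. Relative to talin, Raver1 was thus 13.7 and 18.0 times its sedentary mean, and Vcl 5.87 and 19.6 times. Zyx had 41.0 and 41.1 counts per 100 of Tln1 in sedentary bone, almost the same value in both, and 58.6 and 33.8 in exercise. Cap1 and Svil also overlapped between groups on this measure, and Rsu1 (27.2 and 26.2 against 24.9 and 21.3) and Iqgap1 (55.7 and 57.1 against 46.6 and 53.9) stayed lower in both exercise libraries. Between Vcl and Raver1 themselves the ratio was not steady. There were 311 and 363 counts of Vcl per 100 of Raver1 in sedentary bone, 143 in exercise replicate 1 and 367 in exercise replicate 2.

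**Figure D3:**
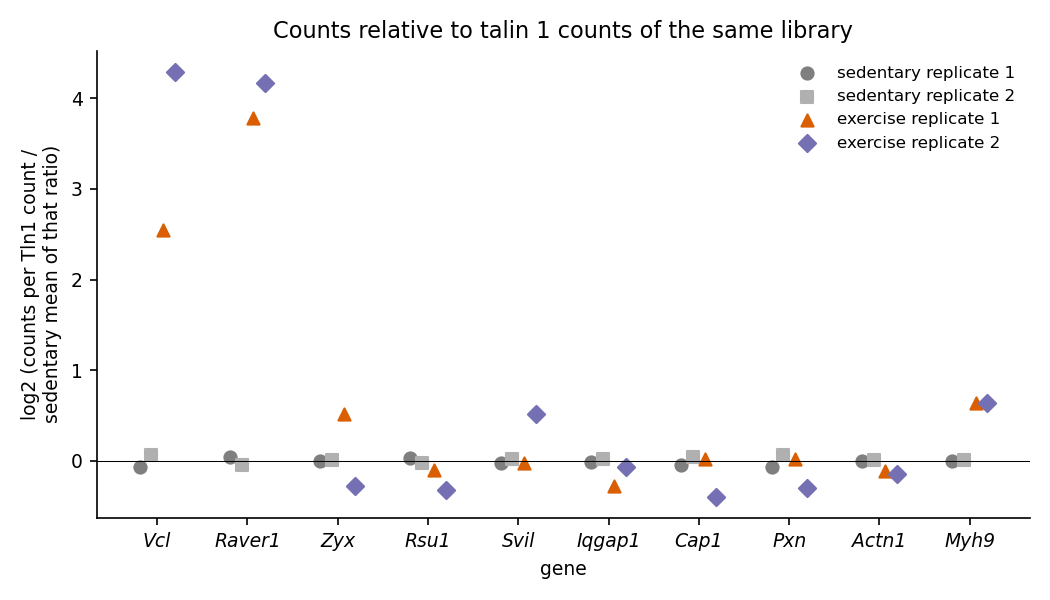
log2 of the counts of each gene per count of Tln1 in the same library, relative to the sedentary mean of that ratio, with 1 point per library for the 7 genes, Pxn, Actn1 and Myh9. Vcl and Raver1 lie far above 0 in both exercise libraries, Myh9 lies above 0 in both, and Zyx lies on both sides.

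Gene models and fractional counts bear on Vcl and Raver1 above all. In GENCODE M21, 3459 of the 3470 exon bases of Raver1 (99.7%) also belong to Gm38431, a protein-coding model on the same strand that was not in the table. For Vcl, 2090 of 8191 exon bases (25.5%) are shared with Ap3m1 on the opposite strand, likewise not in the table. Whether counting used strand is not given in the sources used here. Overlap with exons of other genes was at most 4.38% for the other 5 members, the highest being that of Zyx with Epha1, and 0 for Rsu1 and Svil. Counts were whole numbers in all 4 libraries for Zyx, Rsu1, Svil and Iqgap1 and not for Vcl, Raver1 and Cap1. In the whole table, 98 of 579 genes with fractional counts (16.9%) and 36 of 596 with whole counts (6.04%) passed the thresholds named above. Raver1 and Vcl are therefore uncertain as gene assignments, and the part that overlaps and fractions had in their values was not tested.

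By the distance over the 4 libraries between log2 shares (with a pseudocount of 1) centred on each gene, the genes of the table most like Vcl were Chtf8 (distance 0.58), Gm21985 (0.63) and Gm50331 (0.66), out of 1136 candidates whose mean count reached 20. Chtf8, which encodes a subunit of a clamp loader for sister chromatid cohesion, had counts of 26.24 and 40.22 in sedentary bone and of 320.02 and 2188.13 in exercise. For Raver1 they were Sms-ps (0.91), Gm49364 (1.08) and Gm15452 (1.09), each with 0 counts in both sedentary libraries. All 6 have fractional counts. These distances were larger than those for the other members. The nearest gene was Dusp1, a phosphatase of MAP kinases, for Zyx (0.14), Abca7 for Rsu1 (0.051), the nuclear envelope gene Sun1 for Svil (0.034), Thrap3 for Iqgap1 (0.052) and Alox12, the platelet-type lipoxygenase, for Cap1 (0.016).

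Of 174 genes of integrins, adhesion adaptors, actin filaments, Raver1 partners and SRF cofactors, 27 were in the table, the 7 members included. Of the other 20, 10 had a higher and 10 a lower log2 share ratio, with a median of -0.03 against 0.14 for the whole table. At the same thresholds 2 of these 20 were called, Myh9 and Ssh3, both with a higher share, against 11.3% of the table in that direction. Both calls were lost without sedentary replicate 1 and without sedentary replicate 2, that of Myh9 also with TMM factors, DESeq2 size factors, the Wald test of DESeq2 and the replicate block, and that of Ssh3 with limma-voom. Myh9, the heavy chain of nonmuscle myosin IIA, which pulls on actin at adhesions, had a share of 6602 and 6372 in sedentary bone and of 9732 and 8243 in exercise, a log2 ratio of 0.47 ± 0.16. Relative to Tln1 it was steadier, with 71.0 and 71.5 counts per 100 in sedentary bone and 111 and 111 in exercise. Ssh3, a phosphatase that activates cofilin, had 49 and 30 counts in sedentary bone and 159.44 and 585.39 in exercise, a log2 ratio of 1.34 ± 0.41.

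Apart from Raver1, talin, paxillin and alpha-actinin are among the partners and neighbours of vinculin in adhesions. Tln1 had a share of 9293 and 8917 in sedentary bone and of 8755 and 7447 in exercise (log2 ratio -0.17 ± 0.16). Paxillin (Pxn), an adaptor for focal adhesion kinase, had a log2 share ratio of -0.29 ± 0.21. That of Actn1, the actin crosslinker alpha-actinin 1, was -0.30 ± 0.16. As with Rsu1, the counts themselves were higher in exercise. They were 10163.26 and 19961.6 against 5528 and 4610 for Tln1 and 2673 and 4189 against 1369 and 1247 for Pxn. For Actn1 they were 2045 and 3927.99 against 1204 and 1007. None of these 3 was called. The integrins in the table were Itga4, Itga6, Itgal and Itgb2, the last 2 of which form the leukocyte integrin LFA-1. Their log2 ratios lay between -0.17 and 0.00, all 4 overlapped between groups and none was called. The formins Diaph2, Diaph3 and Daam1 had ratios of 0.24 ± 0.22, 0.33 ± 0.26 and -0.25 ± 0.14. Mrtfa, the actin-regulated cofactor of SRF, had a ratio of -0.13 ± 0.24.

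**Figure D4:**
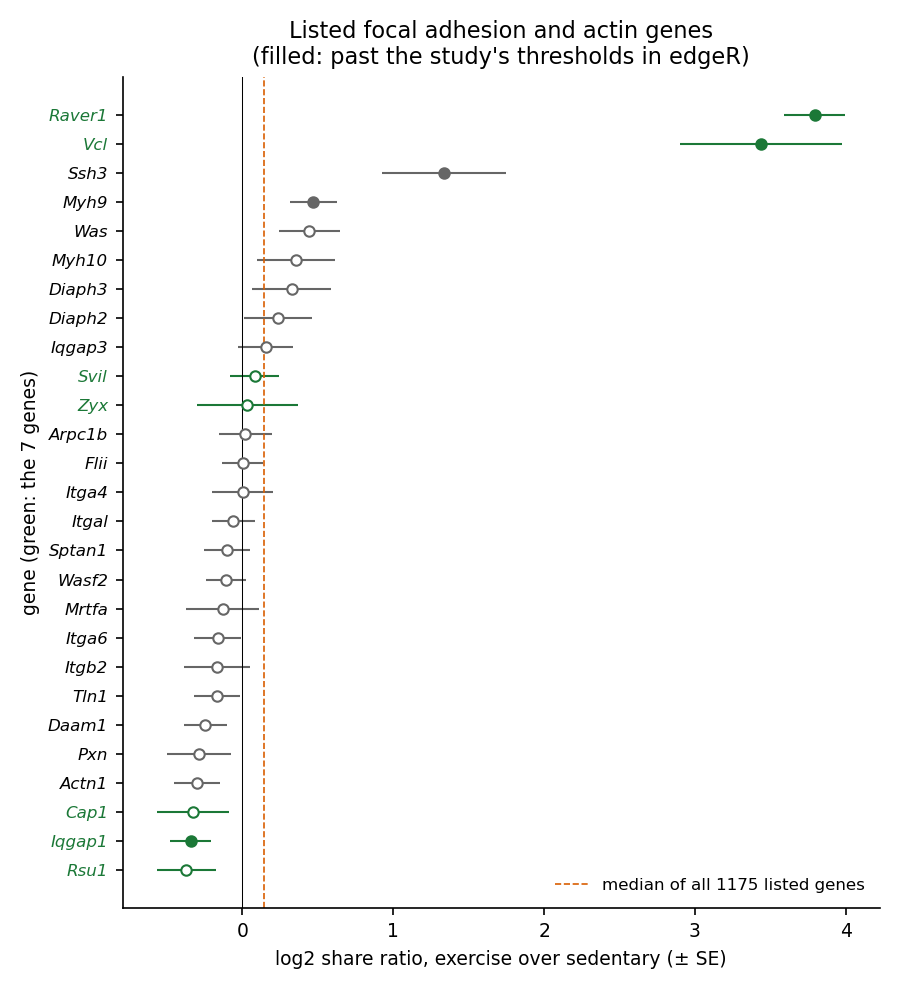
log2 share ratio of exercise over sedentary with its SE from edgeR for the 27 listed genes of the adhesion and actin lists, the 7 genes in green, with filled points for those past the thresholds and the median of the table dashed. Raver1 and Vcl stand at 3.79 and 3.44, Ssh3 at 1.34 and Myh9 at 0.47, and the rest lie between -0.37 for Rsu1 and 0.44 for Was.

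Marker genes in the table limit which cells it can speak for. The table is selected, so a marker missing from it may still have been expressed. Of 6 osteocyte markers only Sost was in the table. Its share was 723 and 667 in sedentary bone and 786 and 696 in exercise replicates 1 and 2. None was listed for osteoblasts, chondrocytes, endothelium, skeletal muscle, smooth muscle and pericytes, or macrophages and osteoclasts. Cells of bone itself could therefore be checked on 1 gene alone. Markers of blood and marrow cells bear on the label of bone emptied of marrow. Ighm, Csf3r, Vwf, Alox12 and Padi4 had larger shares than Sost in every library, and Gp1ba had smaller ones. How much marrow remained was not tested. Of 13 platelet markers Gp1ba, Vwf and Alox12 were listed, with a summed share of 4095 and 3974 in sedentary bone and of 4197 and 3004 in exercise replicates 1 and 2. The sum was lowest in exercise replicate 2, as were Cap1, Rsu1 and Zyx, but Gp1ba, a receptor subunit for von Willebrand factor, went the other way, with 256 and 259 in sedentary bone and 520 and 461 in exercise, and was called with a higher share. Of 9 B lymphocyte markers 4 were listed, with sums of 22074 and 22288 in sedentary bone, 42592 in exercise replicate 1 and 11405 in exercise replicate 2. Nearly all of this was Ighm (20194, 20392, 41148 and 9160), which had the same order over exercise replicate 1, sedentary bone and exercise replicate 2 as Zyx. The other 3, Cd22, Pax5 and Rag1, had the opposite order, with sums of 1879 and 1896 in sedentary bone, 1444 in exercise replicate 1 and 2245 in exercise replicate 2. The 2 listed erythroid markers of 10 had a lower summed share in both exercise libraries (8763 and 8974 against 7141 and 7636). Shares of Rsu1, Iqgap1 and Cap1, and of 16.1% of the genes in the table, were also lower in both. The 2 granulocyte markers of 9 had a higher sum in both (5436 and 5334 against 6978 and 5669), which holds for Csf3r (3770 and 3742 against 4738 and 4181) and not for Padi4 (1666 and 1592 against 2240 and 1487). The part of these cells in the values of the 7 genes was not tested, and in bulk RNA fewer cells of a type cannot be told apart from less RNA per cell.

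**Figure D5:**
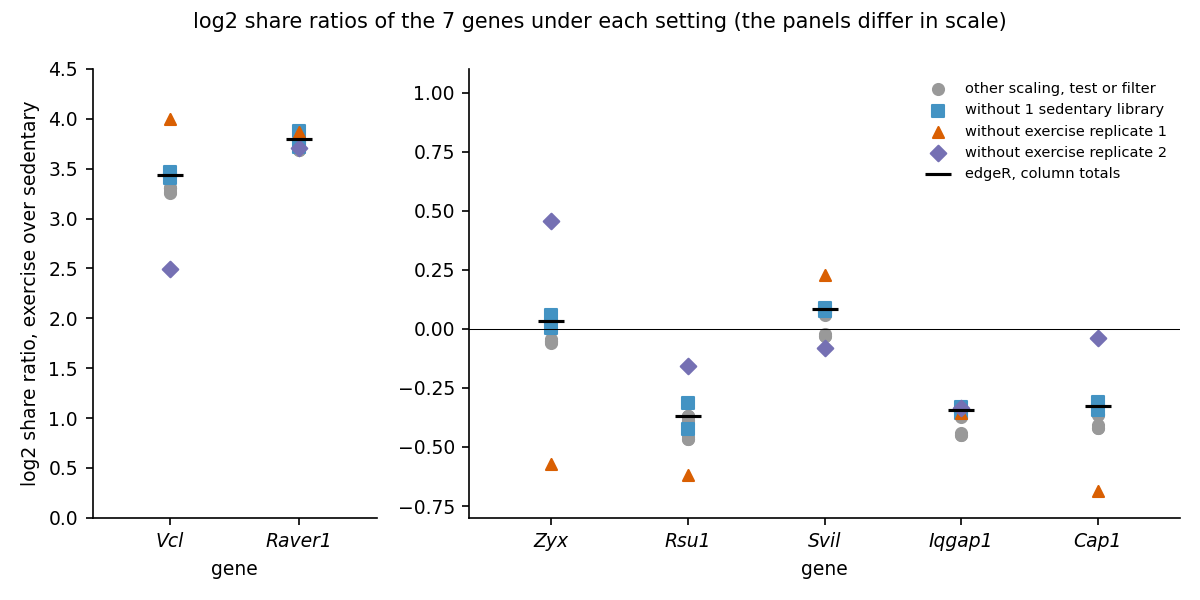
log2 share ratio of exercise over sedentary for each of the 7 genes under column totals in edgeR (black bar) and under each alternative (points), Vcl and Raver1 on the left and the other genes on the right, on different scales. Vcl spreads from 2.50 to 4.003 and Raver1 from 3.69 to 3.88, Zyx spreads over both sides of 0, and Iqgap1 lies between -0.45 and -0.33.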

How the data were processed

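Bulk RNA-seq libraries were made from bone by a modified Smart-seq2 method with UMI barcodes, per the labels. The submitters' processing notes name STAR, HTSeq and mm10, and the methods for the study's RNA-seq add adapter trimming and removal of duplicates by UMI. No source used here gives versions, annotation, strand setting or how genes were selected. The deposited table holds estimated counts, without scaling by depth, and 579 of its 1175 genes have fractions (tolerance 1e-09).

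Counts were rounded, scaled by column totals and fitted over all 1175 genes in edgeR 4.0.16 under R 4.3.3 (quasi-likelihood), exercise over sedentary, two-sided, no covariates, with Benjamini-Hochberg adjustment. Each SE was derived from the log2 ratio and its F statistic. The fit was tried on simulated data with the same spread in both groups. The exercise libraries here differed more than the sedentary ones, and that trial does not cover this difference. Members and gene lists were chosen with earlier results of these data known. Named genes were the members, all listed pathway genes (1 planned list is not reported here) and the 3 nearest in pattern to each member. With 2 libraries per group, calls rest on a spread between libraries that may be technical. Wilson intervals (95%) used SciPy 1.17.1. Alternatives were DESeq2 1.42.0 and limma 3.58.1 among others. Gene models were from GENCODE M21 (GRCm38, the build of mm10), in which all 7 symbols matched.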

Additional observations from a re-analysis of the deposited data

How the results depend on the processing

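Across 13 alternatives, 1 of them (totals without the gene with the highest count, mt-Co1) chosen after seeing the data, the log2 share ratios of Vcl, Raver1, Rsu1, Iqgap1 and Cap1 kept their sign, Vcl, Raver1 and Cap1 over the 12 that could be fitted, since their counts are not whole. Members past the study's thresholds, 3 in edgeR, were 1 with whole counts only, where 4 of the 7 remained in the test, and from 2 to 6 when a library was left out. Genes of the table past them, 134, were 68 with limma-voom, 42 with whole counts only, which tests 596 genes, and from 44 to 650 when a library was left out. Of the 5 adhesion and actin genes past them, Vcl, Raver1, Myh9 and Ssh3 have fractional counts, so whole counts only left them out of the test. Iqgap1, the only 1 of the 5 that remained in that test, kept its call. Calls among all listed adhesion and actin genes also changed with the library left out. Without exercise replicate 1, 17 genes passed, without exercise replicate 2, 9, and without either sedentary library, 2. Such fits have a single library on one side and take its spread from the other. Zyx, at 0.03, turned to -0.042 with TMM factors, -0.053 with DESeq2 size factors, -0.059 with limma-voom, -0.052 with the Wald test of DESeq2, -0.056 with the replicate block and -0.0034 with totals without mt-Co1. It ranged from -0.570 to 0.456 when a library was left out. Svil, at 0.08, turned to -0.022 with TMM factors, -0.0284 with DESeq2 size factors and -0.0284 with the Wald test, and ranged from -0.0825 to 0.228 when a library was left out. The cause was not tested. The replicate block ended the call of Iqgap1 (log2 ratio -0.34) and left 2 members called. The replicate numbers were not seen to pair the libraries (correlation across 1005 genes of deviations -0.07). With column totals 133 of 134 calls in the table were higher, with DESeq2 size factors 121 of 142 were, so scaling moved the share of higher calls. With all 4 libraries, adjusted calls, 4 in edgeR, were 12 with the replicate block, 36 with the Wald test of DESeq2 and 0 with limma-voom. The last called 68 at the unadjusted thresholds. Adjusted calls also changed widely with the library left out. Unknown library totals and 21.04 to 83.6 sedentary counts of Vcl and Raver1 limit every value here.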
